A study of Mus musculus with 13 samples.

Results

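Olfactory bulbs of mice that received no particle exposure were compared between the 2 sets, called 1st and 2nd, that the sample labels give. The members are the 7 unexposed libraries of 13 in the study, 4 of the 1st set and 3 of the 2nd, chosen by their labels, and the genes placed on chromosomes 1 to 19, which are 31834 of the 34745 genes measured. All 7 come from wild-type C57BL/6 mice aged 7 to 8 weeks, with treatment given as none. The remaining libraries, used for the shared estimate of spread and for a side-by-side description, are 3 of the 1st set given the lower dose (3 mg/kg) and 3 of the 2nd given the higher dose (10 mg/kg) of fine particulate matter. RNA was isolated with an RNeasy mini kit, and TruSeq Stranded Total RNA libraries were sequenced. The sources used here do not say what separates the sets (date, litter or facility), nor whether replicates are separate animals, so p-values measure only the spread between these samples. Libraries are named below by set and replicate number.

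The libraries of the sets differ in sex-linked transcripts, although the series is labelled as male. Among 1st-set controls Xist, which coats the X chromosome that is silenced in females, ranged from 2280 to 2784 CPM, and among 2nd-set controls from 0.111 to 0.551 CPM. The Y-linked genes together made at most 0.213 CPM in the former and 177 to 219 CPM in the latter. The set of a bulb and the sex of its library therefore cannot be told apart in any comparison below, which is why sex chromosomes were left out. Total counts were 13032834 to 14095284 in the 1st set and 15387870, 26989267 and 16340221 in libraries 1, 2 and 3 of the 2nd. Library 2 of the 2nd set, the deepest, also stood apart in expression. On the first principal component of the 7 libraries, with 46.1% of the variance, it scored 67.7 against 21.2 and 16.7 for its set and -31.5 to -19.7 for the 1st set. Library 3 of the 2nd set stood apart on the second component, with 15.8% of the variance, at -46.8 against 0.855 to 20.9 in the other libraries. Counts of leading results are therefore given with and without library 2 of the 2nd set.

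The olfactory bulb is the first relay of smell in the brain. Axons of olfactory sensory neurons enter it through a layer wrapped by ensheathing glia and end in glomeruli, where mitral and tufted cells, the glutamatergic output neurons, receive them. Most bulb neurons are GABAergic interneurons, the granule cells of the core and the periglomerular cells around the glomeruli, and new ones keep arriving as neuroblasts in adult life. The bulb is covered by meninges, whose fibroblasts make collagens and retinoic acid, and it is rich in small vessels, so a dissected bulb also holds RNA of fibroblasts, endothelium, mural cells and perivascular macrophages.

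Both sets expressed the genes that define the adult bulb. At least 1 FPKM, a level scaled by gene length and library total, was reached in all 7 libraries by 11819 autosomal genes, of which 10799 are annotated as protein coding. Interneuron genes were prominent on this scale. Mean levels over the 7 libraries in FPKM were 272 for Calb2 (calretinin), 194 for Gad1 and 90.3 for Gad2, which make GABA, 104 for Slc32a1, the vesicular GABA transporter, and 43.4 for the transcription factor Meis2. Mitral and tufted cells were represented by Slc17a7 (VGLUT1) at 230.4, Cdhr1, a protocadherin-like adhesion protein, at 139, and the transcription factors Eomes at 13.01 and Tbx21 at 12.1. Th, tyrosine hydroxylase of dopaminergic periglomerular cells, was at 43.1. Omp, the marker of mature olfactory sensory neurons whose axons reach the bulb, was at 59.8. Glia were represented by the astrocyte genes Slc1a2 at 113, Gja1 at 70.1 and Gfap at 48.2, by Mobp of myelin at 48.1, and by Tmem119 of microglia at 6.38.

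Defining markers of neighbouring tissue were low, while broader genes on the same lists were not. Neurod6 of cortical projection neurons was at 0.726 FPKM, Drd1 and Drd2 of striatal neurons at 1.33 and 0.992, and Ttr and Folr1 of choroid plexus at 0.451 and 0.0256. On the list of cortex and striatum Camk2a was at 64.6 FPKM, Nrgn at 35.8, Rasgrf2 at 19.1, Lamp5 at 10.3 and Cux2 at 9.51, and the water channel Aqp1 of the choroid plexus list was at 10.5. Gm26917 and Gm42418, gene models that carry ribosomal RNA sequence, were at 6305 and 2494 FPKM. Leaving out models known only by such numbers, the highest levels belonged to Rpph1 and Rmrp, the RNAs of ribonucleases P and MRP, at 10402 and 3198 FPKM, and to the nuclear RNA Malat1 at 1895 FPKM. Other high levels were those of Ckb (brain creatine kinase) at 1068, Cpe (carboxypeptidase E, which trims neuropeptide precursors) at 587, and the sodium pump subunit Atp1b1 at 534. Cox8a of respiratory complex IV, the elongation factor Eef2 and the glutamine synthetase Glul of astrocytes stood at 530, 488 and 444 FPKM. Tpt1-ps3, an annotated pseudogene whose reads may come from its parent gene, and Rplp1 of the ribosome were also among the 12 highest so chosen.

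The sets differed in many genes, and most differences of 2-fold or more were lower levels in the 2nd set. Of 31834 autosomal genes, 16875 passed the filter on low counts, and edgeR's quasi-likelihood test with Benjamini-Hochberg adjustment called 3228 of them (19.1%) at 0.05. Of these, 1745 (10.3%) were higher and 1483 (8.79%) lower in the 2nd set. The median log2 fold change of all genes tested, 2nd minus 1st set, was -0.02. Changes of at least 2-fold were called in 551 genes (3.27%), of which 45 (0.267%) were higher and 506 (3.00%) lower. The 4 and 3 libraries did not overlap in 5113 genes (30.3%). Without library 2 of the 2nd set 1283 genes were called (7.50%), 675 higher (3.94%) and 608 lower (3.55%), and 282 of them (1.65%) by 2-fold, 33 higher (0.193%) and 249 lower (1.45%). Leaving out library 1 or 2 of the 1st set gave 1981 and 2050 calls, and leaving out library 3 of the 2nd set gave 877 by 2-fold. With upper-quartile scaling the calls split into 1241 higher and 1873 lower, and with no filter on low counts into 2183 and 1113. Strand use in the counting is not given in the sources used here, so reads of overlapping genes on opposite strands may have been counted together. Of the genes named, this applies to Abcb1a, Aldh1a2, Aldh1l1, Aqp4, Arntl, Atp1b1, B2m, C1s1, Cdh5, Cdkn1a, Cebpb, Col6a6, Csf1r, Cux2, Cx3cr1, Dbp, Ddc, Egfl7, Eomes, Fkbp5, Folr1, Gad1, Gapdh, Gfap, Ggnbp1, Glcci1, Glul, Gm42418, Greb1, Hif3a, Hist1h2ac, Hist1h2ae, Hspd1, Hspe1, Icam1, Igf2, Insrr, Kctd12, Lef1, Malat1, Matn2, Meg3, Mybpc1, Nanos2, Nr1d1, P2ry12, Pdgfra, Penk, Rmrp, Sdha, Shisa3, Slc1a2, Slc32a1, Slc6a13, Slco2a1, Sned1, Stab1, Synpr, Tagln, Tbp, Tgfbr3, Umad1 and Zbtb9.

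**Figure D1:**
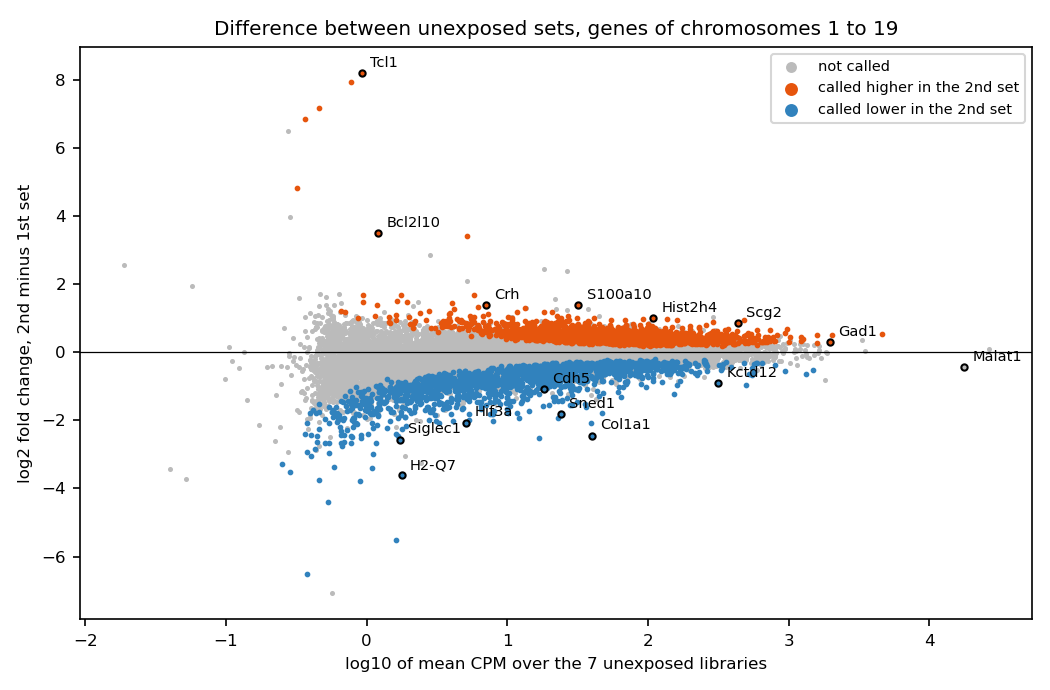
Each point is 1 autosomal gene that passed the filter, with log10 of its mean CPM over the 7 unexposed libraries on the horizontal axis and its log2 fold change (2nd minus 1st set) on the vertical axis. Orange and blue mark the 1745 genes called higher and the 1483 called lower in the 2nd set. The large falls lie mostly at low and middle levels, and the fitted value of Tcl1, which had no count in 1st-set controls, depends on the prior count.

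Most fibroblast genes of the meninges were lower in the 2nd set. Of 14 meningeal fibroblast genes, 10 were lower and none was higher, against 8.79% of all genes called lower, and the median log2 fold change was -1.20. Col1a1, a chain of type I collagen, stood at 131, 52.6, 31.3 and 31.7 CPM in the 4 libraries of the 1st set and at 13.1, 8.89 and 12.03 CPM in the 3 of the 2nd. Every 1st-set library was above every 2nd-set library, and library 1 of the 1st set was far above the others of its set. The difference (log2 fold change -2.45, SE 0.62, adjusted p = 0.0238) did not pass without library 2 of the 2nd set, at -2.29 (adjusted p = 0.118). Aldh1a2, a retinoic acid synthase of meningeal fibroblasts, was steadier, at 19.2, 20.3, 19.8 and 22.5 CPM in the 4 libraries of the 1st set and at 10.5, 11.3 and 5.25 CPM in the 3 of the 2nd. It fell to its lowest level in library 3 of the 2nd set (log2 fold change -1.18, SE 0.20, adjusted p = 0.0027). Slc47a1, an organic cation exporter, stood at 7.86, 9.01, 5.87 and 8.08 CPM in the 4 libraries of the 1st set and at 2.63, 2.13 and 1.79 CPM in the 3 of the 2nd. These groups again did not overlap (log2 fold change -1.82, SE 0.27, adjusted p = 0.00123). Col1a2, Col3a1, Lum, Slc22a6, Foxc1, Ranbp3l and Slc6a13 were the other called members, between -2.06 and -0.88 on the log2 scale. Dcn, Igf2, Ptgds and Crabp2 did not pass, at Dcn (-0.75), Igf2 (-0.82), Ptgds (-0.51) and Crabp2 (-0.59). Without library 2 of the 2nd set 7 of the 14 were lower, against 3.55% of all genes, with a median of -1.22. Col1a1, Col1a2, Lum and Slc6a13 then did not pass, while Ptgds did, at -0.77 (adjusted p = 0.0262). The summed level of the list was 906 to 1031 CPM in the 1st set and 410.5 to 768 CPM in the 2nd. Ptgds held most of it, with means of 688 and 483 CPM. In whole bulbs, fewer cells of a type and less RNA per cell cannot be told apart.

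Several genes of vessel walls were also lower, against 8.79% of all genes called lower. Among 15 endothelial genes 8 were lower and none higher, with a median of -0.62, and among 9 genes of pericytes and smooth muscle 6 were lower and none higher, with a median of -0.65. Cdh5, the VE-cadherin of endothelial junctions, stood at 25.7, 24.5, 23.1 and 20.8 CPM in the 4 libraries of the 1st set and at 12.7, 10.1 and 10.4 CPM in the 3 of the 2nd. The sets did not overlap, and the means were 23.5 ± 2.09 CPM (SD, n = 4) and 11.1 ± 1.40 CPM (SD, n = 3) (log2 fold change -1.09, SE 0.12, adjusted p = 0.00019). Vwf, the von Willebrand factor of endothelium, stood at 36.6, 38.6, 29.97 and 27.7 CPM in the 4 libraries of the 1st set and at 12.6, 5.84 and 8.15 CPM in the 3 of the 2nd, lowest in library 2 of the 2nd set (log2 fold change -1.92, SE 0.27, adjusted p = 0.00118). Flt1, Tie1, Abcb1a, Slco1a4, Kdr and Egfl7 were lower as well, from Abcb1a (-0.93) to Flt1 (-0.62). The endothelial genes Cldn5, Pecam1, Tek, Ly6c1 and Slco1c1 lay between -0.16 and 0.18 and were not called, so the list did not move as a whole. Among mural genes Pdgfrb, a growth factor receptor of pericytes, stood at 53.6, 49.4, 45.9 and 47.5 CPM in the 4 libraries of the 1st set and at 31.04, 25.8 and 30.4 CPM in the 3 of the 2nd, with no overlap (log2 fold change -0.76, SE 0.10, adjusted p = 0.000785). Myh11, the smooth muscle myosin, was 11.5 ± 1.30 CPM (SD, n = 4) in the 1st set and 3.33 ± 2.26 CPM (SD, n = 3) in the 2nd (log2 fold change -1.82, SE 0.32, adjusted p = 0.00284). Tagln and Acta2, both of smooth muscle, had log2 fold changes of -0.99 and -0.94. With library 2 of the 2nd set left out 5 endothelial and 3 mural genes were lower, against 3.55% of all genes, and without library 1 of the 1st set or library 3 of the 2nd 5 endothelial genes were.

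Perivascular macrophage genes were lower in 3 of 8 tested, against 8.79% of all genes called lower, with a median of -0.93. Stab1, a scavenger receptor, stood at 48.1, 41.6, 32.4 and 35.3 CPM in the 4 libraries of the 1st set and at 21.8, 15.9 and 17.96 CPM in the 3 of the 2nd. Cd163, a haemoglobin scavenger receptor, stood at 3.10, 2.96, 2.65 and 1.49 CPM in the 4 libraries of the 1st set and at 0.658, 1.005 and 0.370 CPM in the 3 of the 2nd. Neither overlapped between the sets (log2 fold change -1.09, SE 0.16, adjusted p = 0.00114 for Stab1 and log2 fold change -1.84, SE 0.36, adjusted p = 0.0046 for Cd163). Mrc1, the mannose receptor, was the remaining called member (log2 fold change -0.90, SE 0.18, adjusted p = 0.00558). Siglec1, a sialic acid receptor of macrophages outside the list, was among the 12 largest falls (log2 fold change -2.57, SE 0.46, adjusted p = 0.003). Of 15 genes of resident microglia 1 was lower, a share near the 8.79% of all genes called lower, and the list's median was 0.09. The gene called was Csf1r (log2 fold change -0.27, SE 0.08, adjusted p = 0.0275), which did not pass without library 2 of the 2nd set (adjusted p = 0.0715). Icam1, an adhesion molecule, and Osmr, the oncostatin M receptor, were lower among 10 acute inflammatory genes, against 8.79% of all genes called lower. The other 8 did not pass, and the median of the 10 was -0.77.

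**Figure D2:**
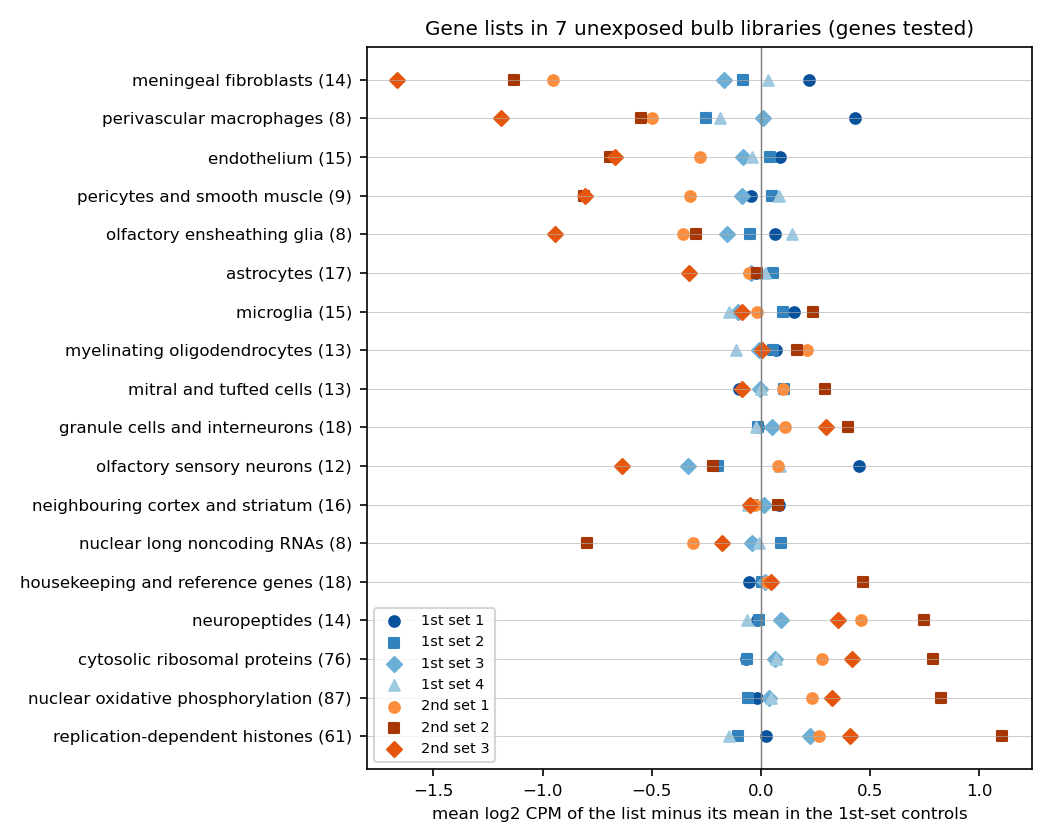
For each gene list (genes tested in parentheses) the points give, for each of the 7 unexposed libraries, the mean log2 CPM of the list minus its mean in the 4 controls of the 1st set. Blue symbols are the 1st set and orange and brown the 2nd. The 3 libraries of the 2nd set lie left of all 1st-set libraries for meningeal fibroblasts, vessels and ensheathing glia, and right of them for neuropeptides, ribosomal proteins, oxidative phosphorylation and histones, with library 2 of the 2nd set farthest right.

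Ensheathing glia, which wrap the incoming sensory axons, were lower in 4 of 8 genes, against 8.79% of all genes called lower, with a median of -0.49. Kctd12, an auxiliary subunit of GABA-B receptors, stood at 400.3, 398, 344 and 433 CPM in the 4 libraries of the 1st set and at 272, 211 and 146 CPM in the 3 of the 2nd. It did not overlap between sets and was lowest in library 3 of the 2nd set (log2 fold change -0.91, SE 0.16, adjusted p = 0.0031). Mybpc1, Ngfr and Prss56 were the other called members, at Mybpc1 (-0.86), Ngfr (-0.95) and Prss56 (-0.74). Frzb, Npy, Matn2 and Fabp7 were not called, at Frzb (-0.23), Npy (-0.19), Matn2 (-0.01) and Fabp7 (-0.12). Library 3 of the 2nd set held 433 CPM for the 8 genes together against 693 and 643 in its set and 713 to 922 in the 1st. The same library was lowest for sensory neuron genes. Omp stood at 143, 128, 110.2 and 156 CPM in the 4 libraries of the 1st set and at 146, 141 and 71.1 CPM in the 3 of the 2nd. The ranges overlap, and none of 12 sensory neuron genes was called by edgeR. Over all autosomal genes 5994 had an unadjusted p under 0.05.

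Astrocyte, oligodendrocyte and precursor lists differed in few members. Of 17 astrocyte genes, Slc4a4, a bicarbonate transporter, and Atp1b2, a sodium pump subunit, were lower, at Slc4a4 (-0.35) and Atp1b2 (-0.42), a share near the 8.79% of all genes called lower, and neither passed without library 2 of the 2nd set. The defining astrocyte markers Gfap, Aqp4, Aldh1l1, Slc1a2 and Gja1 were not called, with log2 fold changes from -0.29 to -0.07. Of 13 myelin genes 1 was higher and 1 lower, against 10.3% and 8.79% of all genes. Mobp was higher (log2 fold change 0.33, SE 0.10, adjusted p = 0.038) and Aspa, an acetylaspartate hydrolase, lower (log2 fold change -0.97, SE 0.16, adjusted p = 0.00234). Of these Aspa passed without library 2 of the 2nd set. Among 10 precursor genes Cspg4 and Pdgfra were lower, against 8.79% of all genes, at Cspg4 (-0.93) and Pdgfra (-0.40), and Cspg4 passed without that library. Both genes are also expressed outside this cell type, Cspg4 in pericytes and Pdgfra in meningeal fibroblasts. On the list of neuroblasts and dividing cells, 3 of 9 were higher, Tubb3 (0.46), Nrep (0.43) and Cd24a (0.36), against 10.3% of all genes. None of these passed without library 2 of the 2nd set. The list's median was 0.01, with 5 fold changes above 0 and 4 below. Its genes of dividing cells lay below 0, from -1.04 to -0.56, and were not called. Of 16 genes of the neighbouring cortex and striatum, Lamp5 (0.64) and Nrgn (0.67) were higher, a share near the 10.3% of all genes called higher. The median of that list was 0.03. Lamp5 passed without library 2 of the 2nd set, and the defining Neurod6, Drd1, Drd2 and Adora2a were not called. Kl and Aqp1 were lower among 5 choroid plexus genes, against 8.79% of all genes, at Kl (-1.57) and Aqp1 (-0.70). Of these Kl passed without that library, while Ttr, the most abundant choroid plexus transcript, was at 0.713 and 0.318 CPM.

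Some neuropeptide and interneuron genes were higher in the 2nd set. Of 14 neuropeptide and granin genes 5 were higher and none lower, against 10.3% of all genes called higher, and without library 2 of the 2nd set 5 were higher and 1 lower, Npy at -0.52 (adjusted p = 0.0444). Scg2, secretogranin II of dense-core vesicles, stood at 301, 334, 345 and 321 CPM in the 4 libraries of the 1st set and at 571, 622 and 568 CPM in the 3 of the 2nd. The sets did not overlap and spread little (log2 fold change 0.85, SE 0.08, adjusted p = 5.21e-05). Crh, corticotropin-releasing hormone, stood at 3.93, 4.29, 3.84 and 4.68 CPM in the 4 libraries of the 1st set and at 6.77, 14.6 and 11.1 CPM in the 3 of the 2nd. Library 2 of the 2nd set was highest (log2 fold change 1.38, SE 0.25, adjusted p = 0.00294), and its binding protein Crhbp, not on the list, was higher too, at 13.7, 10.7, 11.9 and 11.1 CPM in the 4 libraries of the 1st set and at 25.5, 25.4 and 29.9 CPM in the 3 of the 2nd (log2 fold change 1.19, SE 0.18, adjusted p = 0.00141). Vip, Penk and Adcyap1 (PACAP) complete the called members, at Vip (0.82), Penk (0.75) and Adcyap1 (0.88). Npy, Sst, Cck, Tac1, Trh, Nts, Pdyn, Vgf and Chgb did not pass, between -0.19 and 0.69. Among 18 granule cell and interneuron genes 4 were higher and none lower, against 10.3% of all genes called higher. The list's median was 0.28, and all 18 fold changes were above 0. The 18 genes summed to 5669 to 6036 CPM in the 1st set and 6650.0 to 7391 CPM in the 2nd, with no overlap. Gng4, a G-protein gamma subunit, stood at 670.3, 687, 723 and 716 CPM in the 4 libraries of the 1st set and at 864, 1097 and 992 CPM in the 3 of the 2nd, with no overlap (log2 fold change 0.49, SE 0.09, adjusted p = 0.00282). Synpr, Dlx5 and Gad1 were the others, at Synpr (0.44), Dlx5 (0.45) and Gad1 (0.29), and Gng4 and Synpr passed without library 2 of the 2nd set. Without library 2 of the 1st set 2 of the 18 were higher, and without library 1 of the 2nd set 9. Mitral and tufted genes were called in 1 of 13, Shisa3 (log2 fold change 0.52, SE 0.12, adjusted p = 0.00908), a share below the 10.3% of all genes called higher. The edgeR test called none of 9 periglomerular genes, Th among them, at 146 and 166 CPM, and without library 2 of the 2nd set it called 1 lower, the dopamine-making decarboxylase Ddc at -0.59 (adjusted p = 0.0428).

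Several genes with the largest differences belong to none of these lists. Bcl2l10 (ENSMUSG00000032191, chr9:75347758-75351632 in mm10), a BCL2 family gene, showed the largest rise under the naming rule, and stood at 0.227, 0.141, 0.140 and 0.354 CPM in the 4 libraries of the 1st set and at 3.09, 2.16 and 2.34 CPM in the 3 of the 2nd. The groups lay far apart in every library (log2 fold change 3.51, SE 0.37, adjusted p = 0.000132). Tcl1 and Oog3, chosen after their values were seen, had no count in any 1st-set control. In libraries 1, 2 and 3 of the 2nd set Tcl1 stood at 1.91, 2.01 and 2.53 CPM and Oog3 at 2.17, 1.005 and 2.28 CPM. Against a floor of 3 counts over the 4 libraries, 0.0537 CPM, these are at least 40.0-fold and at least 33.9-fold higher. All of these are known as genes of the oocyte or early embryo. S100a10, a calcium-binding partner of annexin A2, stood at 18.1, 16.04, 21.03 and 20.3 CPM in the 4 libraries of the 1st set and at 41.8, 53.3 and 53.5 CPM in the 3 of the 2nd. It passed with and without library 2 of the 2nd set (log2 fold change 1.39, SE 0.15, adjusted p = 0.000132). Cebpb, a transcription factor of acute responses, Areg, an EGF receptor ligand, and Zfp180, a zinc finger protein, were among the other large rises, at Cebpb (1.68), Areg (1.48) and Zfp180 (1.19).

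Large falls included immune, transport and matrix genes. H2-Q7 and H2-Q6, near-identical class Ib MHC genes between which reads can be split, were lower, at H2-Q7 (-3.61) and H2-Q6 (-2.47). Slco2a1, a prostaglandin transporter, and C1s1, a complement protease, were lower too, at Slco2a1 (-2.22) and C1s1 (-2.24), as were the receptor kinase Insrr (-2.67), Nanos2 (-2.41) and the collagen Col6a6 (-2.40), of which Col6a6 did not pass without library 2 of the 2nd set (adjusted p = 0.0517). Hif3a, a hypoxia-inducible factor subunit that glucocorticoids induce, stood at 7.03, 6.68, 9.01 and 7.65 CPM in the 4 libraries of the 1st set and at 2.04, 1.24 and 2.28 CPM in the 3 of the 2nd. No library overlapped (log2 fold change -2.06, SE 0.26, adjusted p = 0.000525), while other glucocorticoid-responsive genes, Fkbp5 (0.05) and Sgk1 (-0.01) among them, were not called. Of the 11 genes on that list 1 was higher and 1 lower, shares near the 10.3% and 8.79% of all genes. The gene called higher was the cell-cycle inhibitor Cdkn1a (log2 fold change 0.53, SE 0.10, adjusted p = 0.00484). Greb1, a gene that oestrogen induces, was the single called gene of 5 sex steroid receptors and targets, against 8.79% of all genes called lower. Greb1 stood at 18.3, 19.1, 15.4 and 17.9 CPM in the 4 libraries of the 1st set and at 9.73, 6.57 and 8.52 CPM in the 3 of the 2nd. Its libraries did not overlap (log2 fold change -1.10, SE 0.16, adjusted p = 0.00118). Further genes were named after their values were seen, among them Sned1 and Fbln2, extracellular matrix genes. Sned1 stood at 36.3, 35.4, 32.9 and 34.2 CPM in the 4 libraries of the 1st set and at 11.2, 8.77 and 9.69 CPM in the 3 of the 2nd. Its sets were well apart (log2 fold change -1.82, SE 0.11, adjusted p = 4.22e-07). Fbln2, fibulin 2, was 51.3 ± 8.16 CPM (SD, n = 4) in the 1st set and 16.9 ± 2.18 CPM (SD, n = 3) in the 2nd (log2 fold change -1.60, SE 0.14, adjusted p = 3.46e-05). Bmp7, Lef1, Tgfbr3 and Aebp1 were lower as well, from -1.52 to -1.32.

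Of 16 clock genes 1 was higher and 3 were lower, against 10.3% of all genes called higher and 8.79% called lower. Nr1d1 (REV-ERB alpha), a repressor of the clock loop, stood at 116, 123, 127 and 113 CPM in the 4 libraries of the 1st set and at 67.5, 81.1 and 70.3 CPM in the 3 of the 2nd. The ranges were apart (log2 fold change -0.71, SE 0.09, adjusted p = 0.000384). Cry1, a repressor that peaks at another time of day, was higher, at 25.6, 28.8, 25.2 and 29.5 CPM in the 4 libraries of the 1st set and at 46.3, 50.5 and 43.2 CPM in the 3 of the 2nd (log2 fold change 0.78, SE 0.12, adjusted p = 0.00151). Per3 and Dbp were lower, at Per3 (-0.61) and Dbp (-0.44), of which Per3 did not pass without library 2 of the 2nd set, and the other 12 of 16 clock genes were not called, Arntl, Clock and Per2 among them. Of 11 heat shock genes 5 were higher and none lower, against 10.3% of all genes called higher. These were the chaperones Hspd1, Hspe1, Hspa8, Hsph1 and Dnajb1, from Dnajb1 (0.43) to Hspa8 (0.68). Without library 2 of the 2nd set 3 were higher, against 3.94% of all genes, and without library 3 of the 2nd set 8 were. Of 16 immediate early genes, which neuronal activity induces within minutes, Egr3 alone was called (log2 fold change 0.996, SE 0.26, adjusted p = 0.0201), a share below the 10.3% of all genes called higher. It did not pass without library 2 of the 2nd set (adjusted p = 0.0656). These genes varied within the 1st set, where the list summed to 1011 and 1113 CPM in libraries 1 and 4 and to 1563 and 1901 in libraries 2 and 3. Among genes known to differ between C57BL/6 substrains, Nnt, a mitochondrial transhydrogenase, was lower by a small amount (log2 fold change -0.28, SE 0.09, adjusted p = 0.0451), but not without library 2 of the 2nd set (adjusted p = 0.205), and it was expressed in all 7 libraries, at 3.72 FPKM on average.

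Several genes often taken as constant references were higher in the 2nd set, and most of these did not pass without library 2 of that set. Of 18 housekeeping and reference genes 7 were higher and none was lower, against 10.3% of all genes called higher, with a median of 0.31. Actb, cytoplasmic beta-actin, stood at 603, 627, 579 and 549 CPM in the 4 libraries of the 1st set and at 723, 1003 and 703 CPM in the 3 of the 2nd. Each 2nd-set library was above all of the 1st, and library 2 was the highest (log2 fold change 0.46, SE 0.12, adjusted p = 0.0172). Rpl13a, a ribosomal protein, stood at 175, 174, 189 and 179.9 CPM in the 4 libraries of the 1st set and at 247, 389 and 262 CPM in the 3 of the 2nd, again with library 2 of the 2nd set on top (log2 fold change 0.74, SE 0.16, adjusted p = 0.00742). The other called genes were Tuba1a, Eef1a1, Pgam1, Ywhaz and Sdha, from Tuba1a (0.67) to Sdha (0.33). Gapdh stood at 78.8, 119, 132 and 89.5 CPM in the 4 libraries of the 1st set and at 149, 207 and 99.8 CPM in the 3 of the 2nd, so its libraries overlap and its interval was wide, -0.04 to 1.12 on the log2 scale (adjusted p = 0.166). The least different by point estimate were Ppia at 0.02 (95% interval -0.37 to 0.41), Tfrc at -0.03 (-0.37 to 0.30) and Tbp at -0.12 (-0.38 to 0.15), and these intervals do not show equality. B2m, Polr2a and Gusb lay below 0 and did not pass, at B2m (-0.43), Polr2a (-0.23) and Gusb (-0.22), and Polr2a was called lower with upper-quartile scaling. Of the 18, 1 was higher without library 2 of the 2nd set, Rpl13a at 0.51 (adjusted p = 0.0224), and 1 was lower, B2m at -0.73 (adjusted p = 0.0203). A count of 1 in 18 is near the share of all genes called without that library, 3.94% higher and 3.55% lower. Leaving out library 1 or 2 of the 1st set left 3 and 4 higher.

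**Figure D3:**
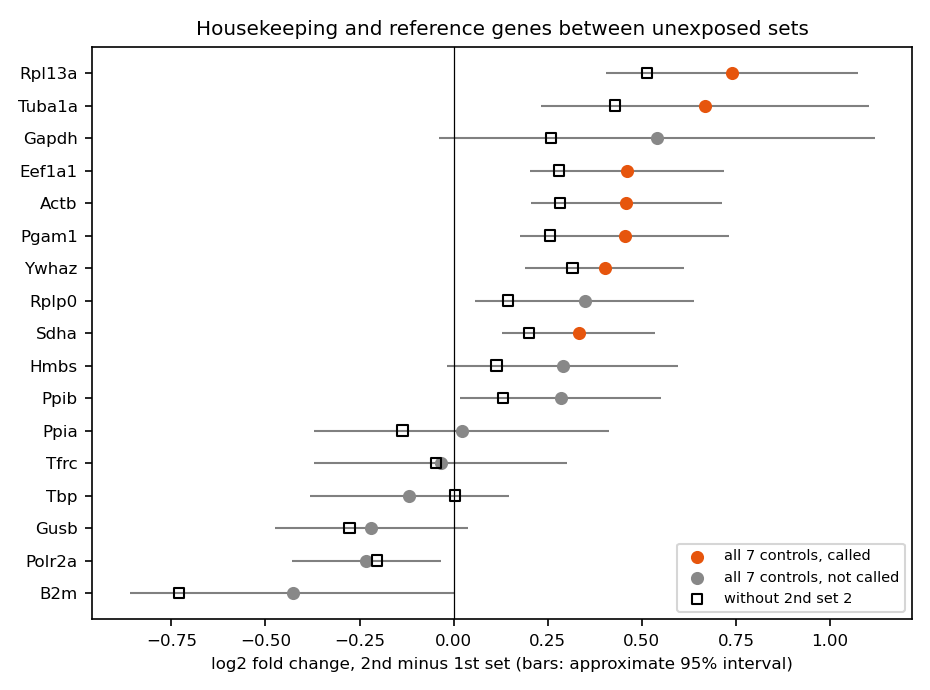
Filled points give the log2 fold change (2nd minus 1st set) of 17 of the 18 housekeeping and reference genes with the approximate 95% interval as a bar, orange where called and grey where not. Open squares give the value without library 2 of the 2nd set. The squares lie left of the points for Actb, Gapdh, Eef1a1, Tuba1a and Pgam1, and only Rpl13a and B2m pass without that library.

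Many genes of 2 groups of short messages were higher in the 2nd set, against 10.3% of all genes. Of 76 cytosolic ribosomal protein genes 43 were higher and none lower, with a median of 0.52, and of 87 nuclear genes of oxidative phosphorylation 54 were higher and none lower, with a median of 0.51. Ndufb4 of complex I stood at 3.40, 3.66, 4.05 and 4.04 CPM in the 4 libraries of the 1st set and at 9.41, 10.4 and 8.52 CPM in the 3 of the 2nd. The sets were apart (log2 fold change 1.32, SE 0.17, adjusted p = 0.000535). Cox8a of complex IV stood at 211, 208, 208 and 223 CPM in the 4 libraries of the 1st set and at 289, 540.1 and 356 CPM in the 3 of the 2nd, highest in library 2 of the 2nd set (log2 fold change 0.90, SE 0.17, adjusted p = 0.00516). Rps26, Rps7 and Rpl21 of the ribosome were higher at Rps26 (1.01), Rps7 (0.89) and Rpl21 (0.66). Without library 2 of the 2nd set 19 of the ribosomal and 23 of the oxidative phosphorylation genes were higher, with medians of 0.37 and 0.33, and without library 1 or 2 of the 1st set 34 and 35 of the latter were. Of the ribosomal genes, 26 were higher without library 2 of the 1st set. In shares of all counts, ribosomal protein genes made up 0.353 to 0.398% in the 1st set and 0.443, 0.651 and 0.492% in libraries 1, 2 and 3 of the 2nd. Oxidative phosphorylation genes made up 0.563 to 0.599% in the 1st set and 0.695, 0.997 and 0.720% in the 2nd. Both shares did not overlap, which in an exact two-sided permutation test of 4 against 3 gives the smallest p possible, 0.0571 (0.0825 adjusted over 13 RNA classes). This p does not set the 2 groups apart. Histones, nuclear long noncoding RNAs, TEC with sense-intronic models and processed pseudogenes reached it too. So did protein-coding genes as a whole, genes of 8 kb or more and genes under 2 kb.

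Replication-dependent histone genes have messages that end in a stem-loop in place of a poly(A) tail and serve dividing cells. Of 61 tested, 23 were higher and none lower, against 10.3% of all genes called higher, with a median of 0.70. Hist2h4 stood at 75.3, 74.1, 83.6 and 72.2 CPM in the 4 libraries of the 1st set and at 129, 192 and 141 CPM in the 3 of the 2nd. All 2nd-set libraries were above the 1st, library 2 of the 2nd set most (log2 fold change 1.01, SE 0.13, adjusted p = 0.00062). Hist1h1b, a linker histone, stood at 2.80, 1.55, 2.65 and 3.40 CPM in the 4 libraries of the 1st set and at 3.75, 7.85 and 7.28 CPM in the 3 of the 2nd, with a narrow gap between the sets (log2 fold change 1.28, SE 0.30, adjusted p = 0.0116), and did not pass without library 2 of the 2nd set (adjusted p = 0.0541). Leaving out that library left 6 of 62 higher, against 3.94% of all genes, with a median of 0.37. Without library 1 or 2 of the 1st set 14 and 12 were higher. Histone genes made up 0.0920 to 0.106% of counts in the 1st set and 0.117, 0.212 and 0.131% in the 2nd. Many of these genes are near-identical copies, so reads can be assigned to one copy or another.

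Since several histone genes were called in 1 direction, promoters of the family were read from RefSeq (GRCm38.p6, 250 bases before to 50 after the start). A RefSeq promoter was matched by symbol or unique synonym for 61 of the 70 histone genes listed. These 3 are shown as examples of the motifs searched, Hist1h1b and Hist1h2ae among the largest rises and Hist1h2ac, also called. Capitals mark CCAAT or its reverse complement ATTGG and TATAAA or its reverse complement TTTATA, and the window of Hist1h2ae holds neither of the last pair. The windows are 120 bases of the minus strand of chromosome 13, chr13:21780626-21780745 for Hist1h1b, chr13:23683960-23684079 for Hist1h2ac and chr13:23571221-23571340 for Hist1h2ae.
Hist1h1b: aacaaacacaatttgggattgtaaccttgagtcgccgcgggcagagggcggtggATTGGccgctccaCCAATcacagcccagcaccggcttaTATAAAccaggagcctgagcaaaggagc
Hist1h2ac: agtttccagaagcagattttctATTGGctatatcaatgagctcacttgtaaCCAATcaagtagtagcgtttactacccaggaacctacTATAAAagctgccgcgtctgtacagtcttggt
Hist1h2ae: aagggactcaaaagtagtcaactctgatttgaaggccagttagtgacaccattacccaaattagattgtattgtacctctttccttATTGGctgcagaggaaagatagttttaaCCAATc
CCAAT or ATTGG was found on either strand in 50 of 61 histone promoters (82.0%) and in 34.5% of all 27025 promoters of the same length, and TATAAA or TTTATA in 29 (47.5%) and 12.97%. These matches describe the family and were not compared with its values.

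The set difference varied with gene length. Among protein-coding genes the median log2 fold change was 0.59 below 500 bases (60 genes), 0.49 from 500 to 1000, 0.26 from 1000 to 2000, 0.13 from 2000 to 4000, 0.01 from 4000 to 8000 and -0.09 at 8000 bases or more (4213 genes). Without library 2 of the 2nd set the shortest class was at 0.32 and the longest at -0.04. By library, the median log2 CPM of the shortest class stood 1.06 above the 1st-set mean in library 2 of the 2nd set, at 0.45 in library 3 and at 0.14 in library 1, against -0.13 to 0.12 within the 1st set. Genes of 8 kb or more took 46.0 to 46.9% of counts in the 1st set and 44.7, 39.1 and 44.8% in libraries 1, 2 and 3 of the 2nd. The ribosomal protein, oxidative phosphorylation and histone genes above are short, and how far length and function each contribute was not tested.

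**Figure D4:**
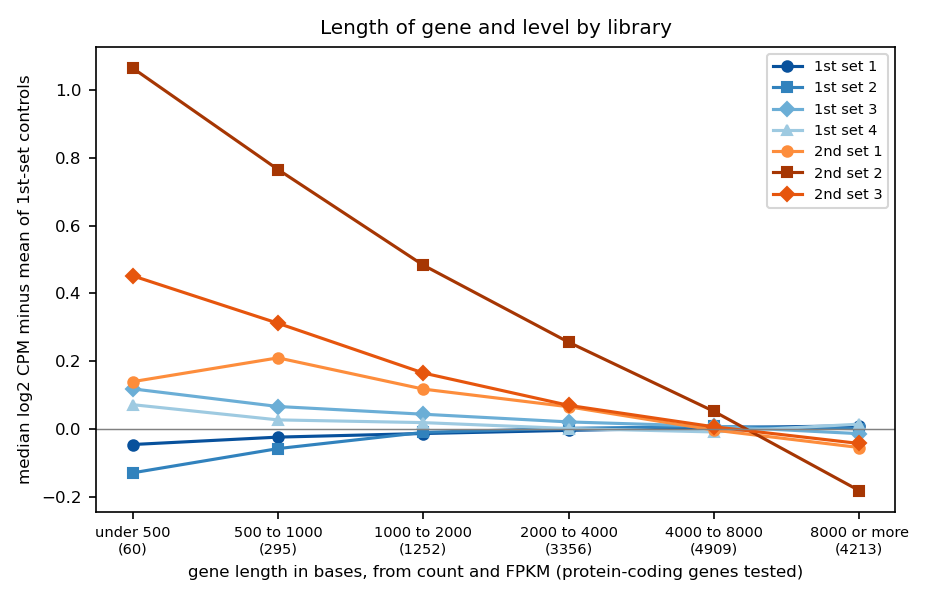
Lines give, for each of the 7 unexposed libraries, the median over protein-coding genes of log2 CPM minus the mean of the 1st-set controls, by class of gene length in bases (number of genes in parentheses). The line of library 2 of the 2nd set falls from 1.06 in the shortest class to -0.18 in the longest, and the 1st-set lines stay between -0.13 and 0.12.

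Many gene models of type TEC were lower in the 2nd set, and nuclear long noncoding RNAs took a smaller share of counts there. Of 1147 gene models of type TEC (a GENCODE class of models that await experimental evidence), 193 were lower and 2 higher, with a median of -0.63. The share lower was 16.8%, against 8.79% of all genes. Without library 2 of the 2nd set 35 were lower, a share near the 3.55% of all genes, and none higher, with a median of -0.30. Sense-intronic models were lower in 17 of 172 (9.88%), near the share of all genes, with a median of -0.60. Without library 2 of the 2nd set none of them was lower, 1 was higher and the median was -0.21. TEC and sense-intronic models together took 1.07 to 1.25% of counts in the 1st set and 0.800, 0.399 and 1.06% in libraries 1, 2 and 3 of the 2nd. Nuclear long noncoding RNAs took 2.37 to 2.60% in the 1st set and 1.89, 1.17 and 2.19% in the 2nd. Malat1 stood at 20405, 19549, 18670.2 and 20532 CPM in the 4 libraries of the 1st set and at 15695, 9965 and 18405 CPM in the 3 of the 2nd. It was lowest in library 2 of the 2nd set and did not pass (log2 fold change -0.43, SE 0.17, adjusted p = 0.0804). Meg3, an imprinted RNA, was likewise lowest there, at 722 CPM against 1520.2 and 1560.3 in its set (log2 fold change -0.81, SE 0.27, adjusted p = 0.0604). Of 8 such RNAs Snhg11 alone was lower (log2 fold change -0.52, SE 0.15, adjusted p = 0.0237), a share near that of all genes, and it did not pass without library 2 of the 2nd set (adjusted p = 0.133), where the list's median went from -0.38 to -0.16. Rpph1 and Rmrp, short RNAs without poly(A) tails, differed most within the 2nd set, where Rpph1 stood at 1862, 6372 and 3197 CPM. Gm26917 and Gm42418 held with Lars2 2.71 to 3.59% of counts in the 1st set and 3.11 to 3.42% in the 2nd, with overlap, and Gm42418 was called higher (log2 fold change 0.54, SE 0.13, adjusted p = 0.0137), but not without library 2 of the 2nd set. Processed pseudogenes, whose reads can come from the parent messages, were higher in 25 of 121 tested (20.7%, against 10.3% of all genes) and lower in 1. Without library 2 of the 2nd set 5 were higher, a share near the 3.94% of all genes, and 0 lower.

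Within a set most genes were reproducible, and a few were not. Over 12274 autosomal genes with a mean of at least 5 CPM, the median pooled SD of log2 CPM was 0.17, with 0.11 for the 1st set, 0.20 for the 2nd and 0.13 for the 2nd without library 2. Of 11367 protein-coding genes at that level, 41 (0.361%) differed at least 5-fold between libraries of a set. An overlap with another gene on the same strand was annotated for 24 of the 41 (58.5%) and for 11.96% of all 11367. In several pairs the counts of one gene stood where those of its partner were missing. Zbtb9, a zinc finger gene, stood at 0.983, 41.7, 0.768 and 45.9 CPM in the 4 libraries of the 1st set and at 34.3, 38.6 and 41.8 CPM in the 3 of the 2nd. Ggnbp1, which overlaps it on chromosome 17 (26973217 to 27036378), stood at 45.95, 8.37, 44.4 and 5.53 CPM in the 4 libraries of the 1st set and at 4.999, 4.91 and 3.58 CPM in the 3 of the 2nd. Zbtb9 is low and Ggnbp1 high in libraries 1 and 3 of the 1st set, and their sum was 39.3 to 51.4 CPM in all 7 libraries. Ggnbp1 was called lower in the 2nd set (log2 fold change -2.53, SE 0.78, adjusted p = 0.0469) and not without library 2 of the 2nd set, at -2.60 (adjusted p = 0.165). Umad1 and Glcci1, Rab43 and RP23-4F16.12, and Gm20716 and Adnp showed the same exchange, with sums of 60.7 to 89.7, 22.2 to 36.3 and 193 to 206 CPM.

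**Figure D5:**
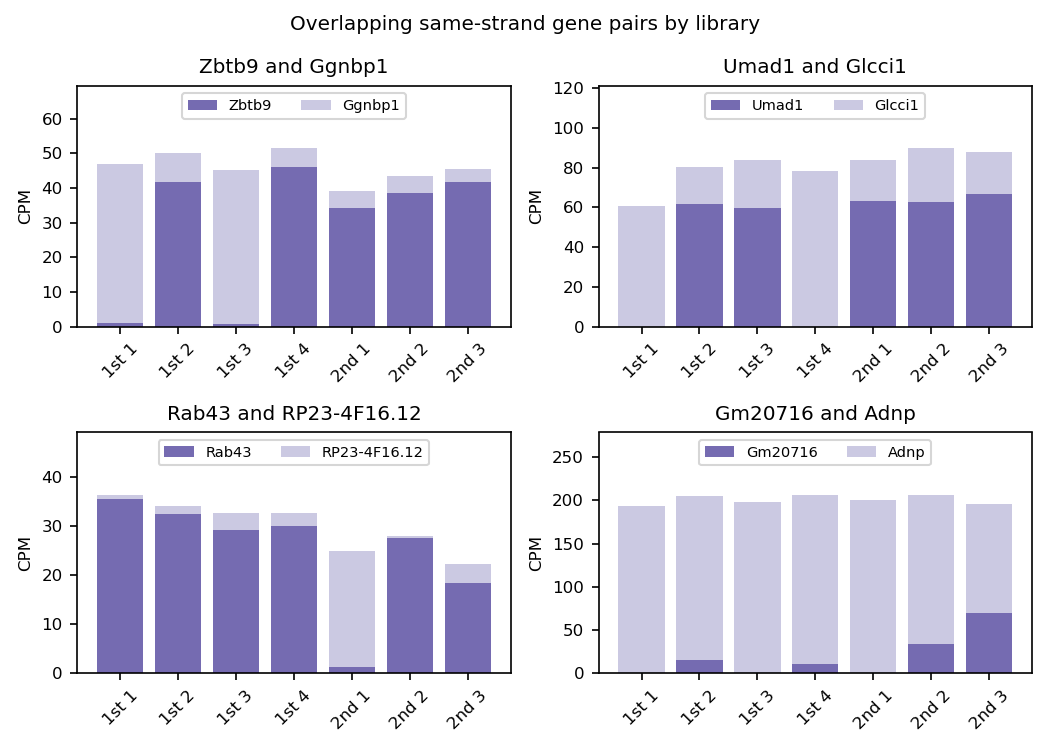
Stacked bars give the CPM of a gene (dark) and of the same-strand gene that overlaps it (light) in each of the 7 unexposed libraries. Zbtb9 is nearly absent in libraries 1 and 3 of the 1st set and Umad1 in libraries 1 and 4, where the partner is high, and the height of the whole bar varies less than its parts.

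Not every gene of this kind has such a partner, and for Zfp281 no overlap on the same strand was annotated. Zfp281, a zinc finger gene on chromosome 1, stood at 68.7, 72.96, 0.0699 and 68.9 CPM in the 4 libraries of the 1st set and at 0.0658, 0.0386 and 75.2 CPM in the 3 of the 2nd. It was near 0 in library 3 of the 1st set and libraries 1 and 2 of the 2nd, and near 70 CPM elsewhere, in libraries of both sets and of unlike depth. Cx3cr1, the fractalkine receptor that defines microglia, stood at 40.2, 36.3, 4.12 and 3.19 CPM in the 4 libraries of the 1st set and at 39.4, 29.8 and 31.3 CPM in the 3 of the 2nd. Libraries 3 and 4 of the 1st set were low while P2ry12, another microglial receptor, stood at 20.4, 22.1, 22.8 and 21.1 CPM in the 4 libraries of the 1st set and at 28.02, 14.2 and 9.07 CPM in the 3 of the 2nd, and Tmem119 at 15.9, 15.8, 14.1 and 16.5 CPM in the 4 libraries of the 1st set and at 16.1, 20.1 and 16.7 CPM in the 3 of the 2nd. Neither of these microglial markers was low in libraries 3 and 4 of the 1st set. The deposited coordinates of Cx3cr1 span 119901616 to 120068283 on chromosome 9 and overlap 3 other genes on the same strand. Nasal mucosa genes were highest in library 1 of the 1st set. Cyp2a5, a cytochrome P450 of olfactory mucosa, stood at 23.3, 1.62, 0.699 and 0.496 CPM in the 4 libraries of the 1st set and at 0, 0.773 and 6.05 CPM in the 3 of the 2nd. Cyp2g1, of the same tissue, stood at 11.3, 0.0704, 0.140 and 0.496 CPM in the 4 libraries of the 1st set and at 0, 0.232 and 0.864 CPM in the 3 of the 2nd. Library 1 of the 1st set was highest for both, followed by library 3 of the 2nd. The 9 mucosa genes summed to 63.9 CPM in library 1 of the 1st set, to 14.2 in library 3 of the 2nd and to 1.12 to 6.05 in the other libraries. Library 1 of the 1st set was also highest for Col1a1, sensory neuron and perivascular macrophage genes, and its share in the set difference is given by the counts without it. Globin genes of red blood cells summed with Slc4a1 to 37.01 to 103 CPM in the 1st set and 95.2 to 117 CPM in the 2nd, lowest in libraries 1 and 2 of the 1st set, and no globin was called. Slc4a1 itself, the anion exchanger of red cells, was called lower at 0.410 and 0.0411 CPM on average, levels of a few counts per library, and it did not pass without library 2 of the 2nd set. In edgeR's test none of 7 nasal mucosa, 5 ependymal and 4 neutrophil and lymphocyte genes tested was called.

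The exposed libraries, which the set contrast of the controls did not use as groups, were looked up for the same genes. In them dose and set cannot be told apart, so the values are a description. Of 1745 genes called higher in 2nd-set controls, 1355 (77.7%) had all high-dose 2nd-set libraries above all low-dose 1st-set libraries, as had 20.5% of all genes, and of 1483 called lower 1017 (68.6%) parted the same way, against 21.0%. Tcl1 and Oog3 were again at 0 in the low-dose libraries, and Tcl1 stood at 2.03, 1.66 and 1.996 CPM and Oog3 at 2.18, 1.66 and 1.28 CPM in the high-dose libraries. Bcl2l10 held 0.200, 0.139 and 0.339 CPM in the 3 low-dose libraries of the 1st set and 3.37, 2.01 and 2.83 CPM in the 3 high-dose libraries of the 2nd, and Sned1 31.7, 33.99 and 37.4 CPM in the 3 low-dose libraries of the 1st set and 11.5, 13.6 and 13.4 CPM in the 3 high-dose libraries of the 2nd. Their exposed libraries thus parted by set as the controls did. Vwf was different, with 28.5, 38.6 and 48.8 CPM in the 3 low-dose libraries of the 1st set and 29.2, 34.9 and 21.8 CPM in the 3 high-dose libraries of the 2nd, ranges that overlap. Nr1d1, with 122, 111 and 127 CPM in the 3 low-dose libraries of the 1st set and 100.1, 114 and 104 CPM in the 3 high-dose libraries of the 2nd, overlapped too. Meningeal Col1a1, with 158, 42.7 and 77.02 CPM in the 3 low-dose libraries of the 1st set and 13.001, 13.9 and 20.8 CPM in the 3 high-dose libraries of the 2nd, remained apart by set.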

How the data were processed

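RNA of 13 olfactory bulb samples was measured by RNA sequencing, and 7 unexposed libraries are compared here. Per the submitters' processing notes, HISAT2 and mm10 were used, with no version named. How genes were counted, with which annotation and with or without strand, is not given in the sources used here. The authors deposited a raw count and an FPKM value per gene and library. FPKM divided the count by gene length and by total count, checked on 2894 genes (largest relative deviation 6.36e-07), so it carries no other scaling between libraries. Gene types and strands came from GENCODE M21 by identifier (34267 matched).

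Counts were tested with edgeR 4.0.16 in R 4.3.3 (TMM, filterByExpr, quasi-likelihood F test with robust set), and all 13 libraries in 4 groups share 1 fit and its spread. P-values were adjusted by Benjamini-Hochberg over all 17467 genes kept, and the 16875 autosomal ones are reported. SE is approximate, being log2 fold change over root F. CPM is the count scaled by the TMM-adjusted total. The fit was tested on simulated data. Alternatives were RLE, upper-quartile and autosomal TMM scaling, DESeq2 1.42.0, limma 3.58.1 (voom, and trend on log2(FPKM + 1)), other filters, the controls alone, the replicate number as a block, each library left out, and, added after seeing the data, thinned counts.

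Named genes are the 12 largest rises and 12 largest falls that were called, had a mean of at least 1 CPM and did not overlap, the 12 highest by FPKM, the 10 with the largest spread within sets, 3 members of smallest p per list, all reference genes and the defining markers. Not every gene this selects is given, since some are not reported here, other list members are named to account for a list, and genes outside it are said to be chosen after their values were seen or are given as pairs of a named gene. The genes compared, the 35 lists and these rules were chosen with earlier results of these data known. No pair of libraries agreed within sampling noise (chi-square per gene of at least 6.76).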

Additional observations from a re-analysis of the deposited data

Results flagged for a closer look

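A gap test (Dixon's, at the 95% critical value for 4 samples) was applied to the 4 unexposed libraries of the 1st set for the genes and RNA classes named. It picked 16 of 207, and chance picks about 1 in 20 of items not chosen by their values. Some of these genes were named for a large spread within sets or for sets that did not overlap, so that rate need not hold here. Library 4 stood alone for Mobp at 256 CPM (others 299 to 307), Nrep at 113 CPM (others 101 to 102), Eef2 at 1300.1 CPM (others 1454 to 1471), Tbp at 57.9 CPM (others 49.9 to 50.9), Ppia at 16.8 CPM (others 14.2 to 14.3), Hist1h2ae at 1.49 CPM (others 0.699 to 0.831) and Slc4a1 at 0.992 CPM (others 0.141 to 0.279). The share of TEC and sense-intronic models was also highest there, at 1.25% against 1.07 to 1.10%. Library 1 stood alone for the nasal mucosa genes Cyp2a5 at 23.3 CPM (others 0.496 to 1.62) and Cyp2g1 at 11.3 CPM (others 0.0704 to 0.496), for Matn2 at 47.5 CPM (others 43.9 to 44.1), for Pecam1 at 22.8 CPM (others 17.2 to 18.1), and for Nanos2 at 1.66 CPM (others 2.67 to 2.86). Library 2 stood alone for Gm42418, which carries ribosomal RNA sequence, at 4514 CPM (others 3552 to 3653). Library 3 stood alone for Zfp281 at 0.0699 CPM (others 68.7 to 73.0) and for Penk at 129 CPM (others 108 to 111). The 3 libraries of the 2nd set were too few for this test.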

How the results depend on the processing

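Named genes kept their direction wherever they were called, in 193 genes and 24 other settings. Against 3228 calls between the sets, leaving out 1 library gave 1283 to 3908, and against 551 calls of 2-fold or more it gave 282 to 877. List counts with 1 library left out ran from 5 to 10 for endothelium, 3 to 7 for pericytes and smooth muscle, 19 to 48 for ribosomal proteins, 23 to 64 for oxidative phosphorylation, 6 to 34 for histones, 1 to 9 for reference genes, 3 to 8 for heat shock genes and 2 to 9 for granule cells and interneurons. Calls of 2-fold or more numbered 268 with at least 1 CPM in every library and 66 with limma on log2(FPKM + 1), a scale that shrinks low genes. The calls split into 1255 higher and 1889 lower with that limma test, against 1745 and 1483. At 5 FPKM 6070 genes were expressed in both sets, against 11819 at 1 FPKM. With the replicate number as a block 1403 genes were called, 1382 of them shared with the fit without it, and 325 by 2-fold. Same-numbered controls of the 2 sets correlated at 0.0232, 7.27e-05 and -0.0810 in their deviations from the set mean. Controls were not compared in this way with exposed libraries of their own set, so whether the numbers pair libraries was not settled. Without library 2 of the 2nd set 41 named genes lost their call, and with the 7 unexposed libraries alone 13 did. The cause of these changes was not tested. For shares of RNA classes the exact permutation test of 4 against 3 libraries can give no p below 0.0571. At the lowest total, 13032834 counts, a gene near 1 CPM rests on few reads.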
